A study of Mus musculus with 4 samples.

Results

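The genes described are the Prame family members of the mouse, taken as every probe whose gene name in the scanner output starts with Pramel or Pramef. They came to 10 genes of 36280 gene names on the array, each read by 1 probe in 1 spot. The family was chosen by a measured value, since Pramel14 showed the largest difference between the CHQ and AZA arrays, so that difference and the other CHQ minus AZA values of the 10 genes are given as a description. A further 26 genes of the same family stood on the array under other names, such as Gm13119 or Oog2, and were recognised through their RefSeq symbols, which makes 36 family genes in all. Of the 10 genes, 3 carry an older name in the files, and Pramef8, Pramef12 and Pramef17 are called here by their current symbols Pramel12, Pramel13 and Pramel14.

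Prame family proteins are built of leucine-rich repeats, and several serve as the substrate-recognising subunit of a ubiquitin ligase whose scaffold is cullin 2. The genes lie in clusters of recent copies and are known for expression in germ cells, oocytes and the embryo before implantation, while most somatic tissues keep them silent. Pramel7, found in the inner cell mass, directs the degradation of UHRF1, the protein that brings the maintenance DNA methyltransferase to replicated DNA, and both Pramel6 and Pramel7 are known to act in embryonic stem cell self-renewal downstream of leukemia inhibitory factor (LIF).

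The study addressed how the RNA-induced silencing complex acts as embryonic stem cells leave the ground state of pluripotency. In a follow-up part it inhibited chromatin enzymes, and 4 arrays from that part were used here. ES was the untreated E14Tg2A embryonic stem cell line (strain 129/Ola) at day 0, kept in serum with LIF. ELA was the same line after 2 days without LIF in a minimal medium, at which point it forms epiblast-like aggregates. AZA was ELA grown with 50 nM of 5-azacytidine, an inhibitor of DNA methyltransferases, and CHQ was ELA grown with 100 µM of 5-carboxy-8-hydroxyquinoline, an inhibitor of lysine demethylases. Each group was 1 array that carried pooled RNA of 3 independent experiments in this 1 line, so there was no replicate array and no p-value could be computed. ES and ELA shared a slide and AZA and CHQ shared another, so in AZA minus ELA and CHQ minus ELA the treatment and the slide cannot be told apart, while ELA minus ES and CHQ minus AZA were read within a slide.

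A level is the log2 of the background-corrected, quantile-normalized intensity. Local background had a median intensity of 59 in ES, 77 in ELA, 14 under AZA and 13 under CHQ, and 60.6%, 55.1%, 69.1% and 69.2% of gene spots were well above background in the same order. The only measure of error within an array was the spread of 432 probes printed in several spots, with a pooled SD of 0.147 log2, which gives 0.208 for a difference between 2 arrays and covers spot noise alone. To be called higher or lower, a gene had to differ by 1 log2 or more, reach a mean level of 7.5 over the 2 arrays compared, and be well above background on 1 of them or both. Genes under that mean level could not be called. For a dim side a fold is given as a lower bound, set against the dimmest probe that array measured well above background. Where the gene's own value on that side was higher, it was used instead, and the fold is then the fitted one. Some undetected probes lay above that dimmest probe, so the bounds are approximate. In bulk RNA, more cells that express a gene and more RNA per cell cannot be told apart.

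Promoters are shown first as a description, since some of these genes share upstream sequence. Whether that goes with their readings was not tested. The sequences run from 250 bases before to 50 bases after the RefSeq start of each gene on build GRCm38.p6, 5′ to 3′ on the strand of the gene, with each CpG, the dinucleotide that DNA methyltransferases act on, in capitals. Pramel14 (minus strand, chr4:143994320-143994619), Pramel13 (minus strand, chr4:144408415-144408714), Pramel6 (plus strand, chr2:87506315-87506614) and Pramel7 (minus strand, chr2:87492369-87492668) are the genes with the largest differences or with known roles in embryonic stem cells. Pramel30 (plus strand, chr4:144329999-144330298) and Pramel39 (minus strand, chr5:94306747-94307046) stood on the array under other names and were chosen after their values were seen.
Pramel14: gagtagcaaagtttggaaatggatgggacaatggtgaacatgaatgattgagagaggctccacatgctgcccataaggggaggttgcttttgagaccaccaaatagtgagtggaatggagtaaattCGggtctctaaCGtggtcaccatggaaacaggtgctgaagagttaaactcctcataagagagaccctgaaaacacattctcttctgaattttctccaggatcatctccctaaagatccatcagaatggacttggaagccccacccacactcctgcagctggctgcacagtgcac
Pramel30: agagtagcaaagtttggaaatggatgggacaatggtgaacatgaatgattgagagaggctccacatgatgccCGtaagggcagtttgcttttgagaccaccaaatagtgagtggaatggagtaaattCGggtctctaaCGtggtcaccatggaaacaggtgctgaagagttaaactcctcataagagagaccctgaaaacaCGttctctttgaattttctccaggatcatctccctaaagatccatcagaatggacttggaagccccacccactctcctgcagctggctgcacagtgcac
Pramel7: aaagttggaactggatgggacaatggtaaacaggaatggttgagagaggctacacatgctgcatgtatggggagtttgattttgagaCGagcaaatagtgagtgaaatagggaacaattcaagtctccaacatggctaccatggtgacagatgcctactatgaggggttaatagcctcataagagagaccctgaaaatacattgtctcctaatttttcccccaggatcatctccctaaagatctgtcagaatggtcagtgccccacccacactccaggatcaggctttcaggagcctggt
Pramel6: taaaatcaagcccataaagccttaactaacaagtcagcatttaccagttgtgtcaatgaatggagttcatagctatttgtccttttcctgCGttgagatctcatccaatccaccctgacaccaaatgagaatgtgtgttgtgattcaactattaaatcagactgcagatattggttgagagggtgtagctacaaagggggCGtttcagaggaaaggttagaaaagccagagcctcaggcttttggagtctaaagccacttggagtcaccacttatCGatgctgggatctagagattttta
Pramel13: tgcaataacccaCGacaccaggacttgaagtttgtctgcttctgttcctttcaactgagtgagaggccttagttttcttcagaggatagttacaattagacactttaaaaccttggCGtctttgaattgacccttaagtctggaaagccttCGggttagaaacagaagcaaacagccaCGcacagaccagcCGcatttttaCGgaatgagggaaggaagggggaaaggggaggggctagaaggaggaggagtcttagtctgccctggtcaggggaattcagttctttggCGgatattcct
Pramel39: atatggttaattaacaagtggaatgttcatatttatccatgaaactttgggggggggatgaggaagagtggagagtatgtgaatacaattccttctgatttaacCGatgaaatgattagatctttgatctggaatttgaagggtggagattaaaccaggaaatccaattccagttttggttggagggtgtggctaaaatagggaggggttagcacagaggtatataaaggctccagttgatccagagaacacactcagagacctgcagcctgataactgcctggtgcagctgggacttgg

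The Pramel14 and Pramel30 promoters were identical at 97.3% of aligned positions. The Pramel7 promoter, on another chromosome, matched Pramel14 at 76.3% and Pramel30 at 75.1%. Among the 496 pairs of family promoters the median identity was 49.2%, and 3 pairs reached 90% or more. Pramel37, a gene listed as BC061212, matched Pramel39 at 98.0%, and Oog2, an oogenesin of oocytes, matched Pramel26 at 93.1%. Pramel6 was identical to Pramel39 at 55.1% of positions, and that was its closest match among the printed promoters.

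**Figure D1:**
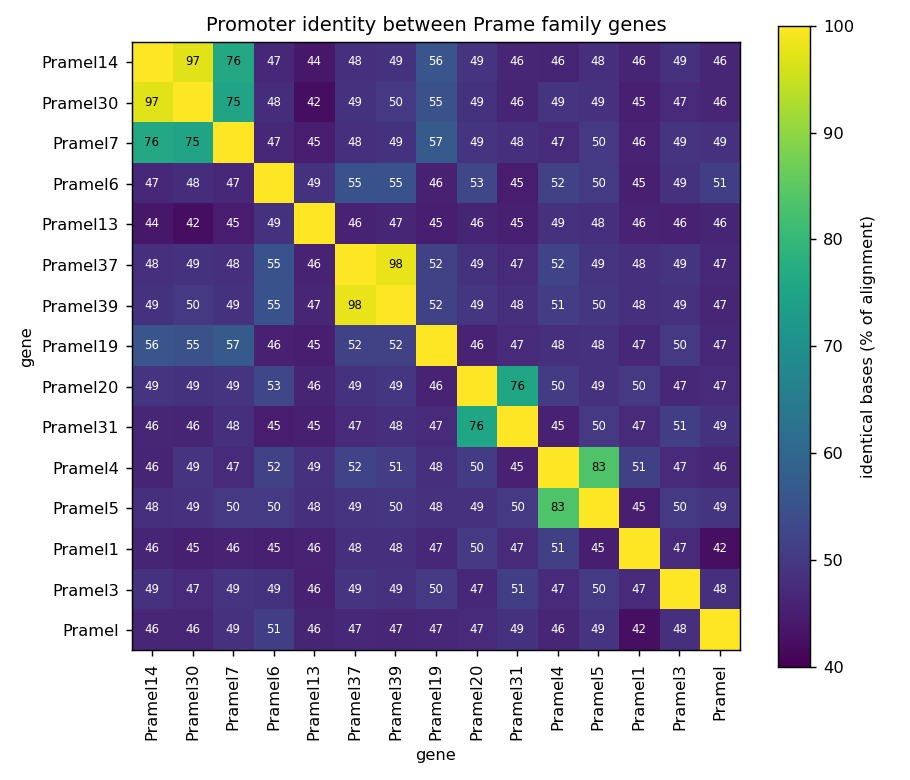
Identity of promoters between 15 Prame family genes, as the percentage of aligned positions that hold the same base (colour scale and number in each square, rows and columns are genes). Pramel14, Pramel30 and Pramel7 form a block of 75.1% to 97.3%, Pramel37 and Pramel39 share 98.0%, and Pramel4 and Pramel5 share 83.4%.

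The family promoters held few CpG sites. Promoter sequences were in the table for 32 of the 36 genes, and the median number of CpG sites among them was 1.5, with a range of 0 to 20, against a median of 7 over 32851 promoters of the same length. Pramel14 held 2, Pramel30 held 4, Pramel7 held 1, Pramel6 held 3, Pramel13 held 7 and Pramel39 held 1. The highest count, 20, was that of Pramel1, which is known from testis and was not well above background on any array. At least 1 CpG was present in 27 of the 32 family promoters and in 94.6% of all promoters. The letters TTCNNNGAA, searched on both strands as the pattern bound by STAT factors downstream of LIF, occurred in 0 of the 32 family promoters and in 8.30% of all. TATAAA on either strand was present in 10 of the 32 (31.2%), Pramel37 and Pramel39 included, and in 13.6% of all promoters. The octamer ATGCAAAT occurred in 0 of the 32 and in 1.74% of all, and no pattern searched contains another.

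Fewest of the 10 genes were detected in ELA and most with CHQ. They were well above background in 4 cases in ES, 2 in ELA, 5 under AZA and 6 under CHQ. Pramel12 and Pramel13 were detected on all 4 arrays. Pramel, Pramel1, Pramel4 and Pramel5 were detected on none, and their levels lay between 5.93 and 6.64. For comparison, 23582 of 36037 genes were well above background in ES, 21783 in ELA, 26342 under AZA and 26497 under CHQ.

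**Figure D2:**
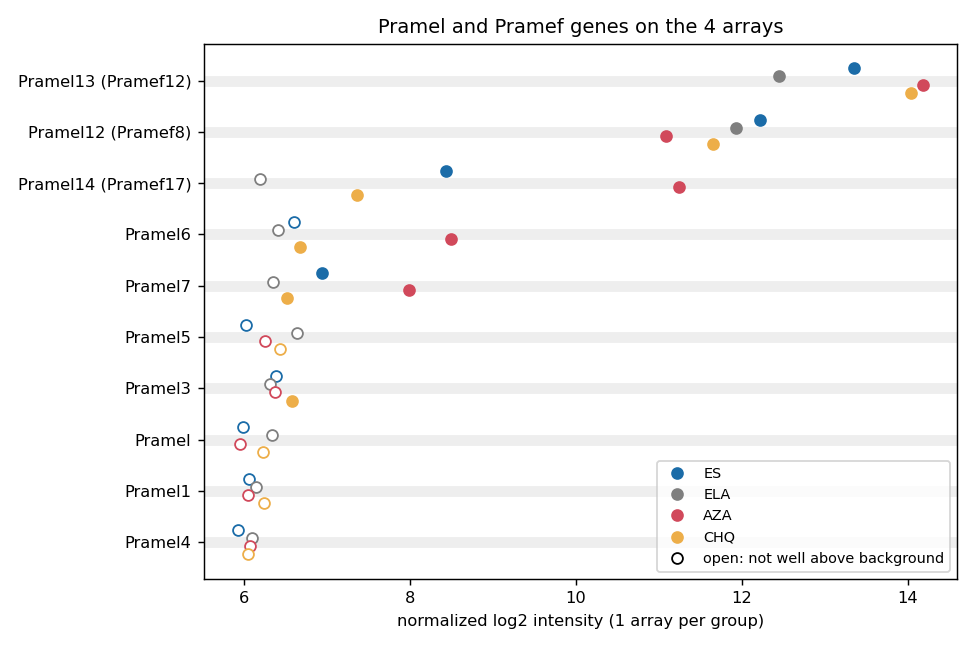
Normalized log2 intensity (x axis) of the 10 Pramel and Pramef genes (y axis, with the name in the files in parentheses) on the ES, ELA, AZA and CHQ arrays, 1 point per array, filled where the probe was well above background and open where it was not. Pramel14, Pramel6 and Pramel7 have their AZA point apart on the right, at 11.24, 8.49 and 7.99, while Pramel13 has both treated points on the right of ELA.

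Pramel14, an autosomal member of the chromosome 4 cluster (probe at chr4:143581025-143581084, build mm9), had the widest range of levels among the 10 genes. Its level was 8.43 in ES, 6.19 in ELA, 11.24 under AZA and 7.36 under CHQ, from raw intensities of 359, 84.9, 2364 and 123. AZA was thus the highest array by far, ES came next, CHQ lay below ES and ELA was not well above background. AZA was at least 22.6-fold above ELA, which was called, and the fitted difference of 5.05 log2 rests on an ELA value that was not well above background. CHQ exceeded ELA by 1.18, at least 1.54-fold, and ELA lay 2.25 below ES, a level at least 3.23-fold lower, but both pairs were too dim for a call. The CHQ minus AZA difference, on which the family was selected, was -3.87, the lowest of 19196 genes. Over 11 other processing settings the fitted AZA minus ELA of Pramel14 ran from 4.61 to 7.62, and CHQ minus ELA ran from 0.53 to 2.95, both against the same undetected ELA value.

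Pramel6 and Pramel7, the pair of neighbours on chromosome 2 with known roles in embryonic stem cells, were also highest with AZA. Pramel6 (chr2:87350964-87351022, mm9) read 6.60 in ES, 6.41 in ELA, 8.49 under AZA and 6.68 under CHQ, and only the AZA and CHQ values were well above background. Its AZA minus ELA difference was 2.08, at least 3.37-fold, at a mean level of 7.45 that fell just short of the level needed for a call. CHQ minus AZA was -1.82 and was called at a mean level of 7.59, barely over the 7.5 needed. The difference ran from -3.53 to -1.77 over 12 other settings, but its call was lost in 7 of them, in 6 because its mean level dropped under that limit and in 1 because both arrays had to be bright. Pramel7 (chr2:87329267-87329326, mm9) read 6.93 in ES, 6.35 in ELA, 7.99 under AZA and 6.52 under CHQ, and ELA was the array where it was not well above background. Its AZA minus ELA difference was 1.63, at least 2.37-fold, and its CHQ minus AZA difference was -1.46, both too dim for a call. Against ELA, CHQ differed by 0.27 for Pramel6 and by 0.17 for Pramel7, and since ELA was not well above background for either, no fold is given. Both differences turned negative under spike-in scaling, at -0.46 and -0.58, and were highest with processed signals and quantile normalization, at 1.43 and 1.72. In ES the level of Pramel7 was at least 1.14-fold above ELA, while Pramel6 was not well above background on either array.

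Pramel13, known as Pramef12 and needed in the male germ line, was the brightest of the 10 genes (chr4:143981583-143981642, mm9). It read 13.35 in ES, 12.45 in ELA, 14.19 under AZA and 14.04 under CHQ, and each array was well above background. Both treated arrays stood above ES, and ELA was the lowest. AZA exceeded ELA by 1.74 and CHQ exceeded ELA by 1.59, and both were called, with ranks of 1387 of 19159 and 1559 of 19163 genes from the highest. ELA minus ES was -0.90, which is larger than the 0.208 of spot noise but under the size needed for a call. CHQ minus AZA was -0.15, within spot noise.

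Pramel12, known as Pramef8, came next in brightness (chr4:143010931-143010990, mm9). Its level was 12.22 in ES, 11.94 in ELA, 11.09 under AZA and 11.65 under CHQ. ES was highest and AZA lowest, whereas AZA was the highest array for Pramel14, Pramel6 and Pramel7. Among the 4 comparisons of the design none reached 1 log2, while AZA minus ES, which crosses the slides, was -1.13. ELA lay -0.29 from ES, AZA and CHQ lay -0.84 and -0.29 from ELA, and CHQ lay 0.56 above AZA. Pramel3, an X-linked gene known from testis (chrX:131845092-131845151, mm9), read 6.38, 6.32, 6.37 and 6.58 in the order ES, ELA, AZA and CHQ and was well above background with CHQ only.

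Counted over the 10 genes, ELA minus ES gave 0 calls in either direction among the 2 bright enough to be called, against 4.45% of 18947 genes called higher and 5.59% called lower over the array. AZA minus ELA gave 2 genes called higher, Pramel13 and Pramel14, and 0 lower among 3 eligible, against 14.3% called higher and 11.4% called lower over 19159 genes. CHQ minus ELA gave 1 called higher, Pramel13, and 0 lower among 2 eligible, against 14.8% higher and 11.9% lower over 19163 genes. With so few eligible genes these counts say little beside the background shares. CHQ minus AZA gave 0 called higher and 2 called lower, Pramel14 and Pramel6, among 4 eligible. Over the array 5.53% of 19196 genes were called higher and 4.81% lower in that comparison, on which the genes were chosen. Over all 10 genes the median difference from ELA was 0.0099 with AZA and 0.13 with CHQ, and it was -0.13 for ELA minus ES and 0.08 for CHQ minus AZA, while the medians over all 36037 genes lay between -0.04 and -0.02. Restricted to genes detected on at least 1 of the 2 arrays, the medians were 1.74 with AZA and 0.26 with CHQ against ELA, -0.74 for ELA minus ES and -0.81 for CHQ minus AZA. That restriction favours large differences, since 3 of the 5 genes kept for AZA minus ELA and 4 of the 6 kept for CHQ minus ELA were not detected in ELA, and these medians support nothing on their own. Spike-in scaling shifted the median of all detected genes to between -0.57 and -0.17 in the 4 comparisons, and the restricted CHQ minus ELA median to -0.46, where that of all detected genes was -0.47.

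**Figure D3:**
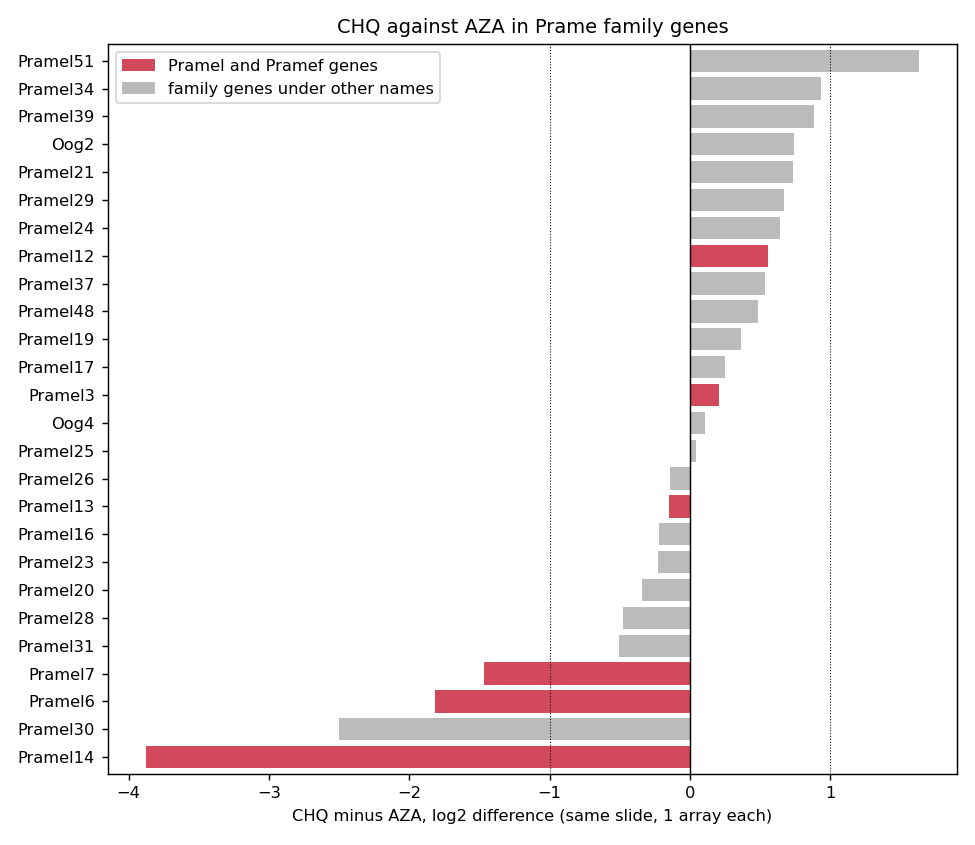
CHQ minus AZA log2 differences (x axis) of the Prame family genes well above background on at least 1 of these arrays (y axis, sorted), with Pramel and Pramef genes in red, genes under other names in grey and dotted lines at 1 and -1. Pramel14, Pramel30, Pramel6 and Pramel7 lie below -1, and Pramel51 alone lies above 1.

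The 26 family genes under other names were read the same way. They were well above background in 10 cases in ES, 5 in ELA, 17 under AZA and 19 under CHQ, and 5 were detected on no array. AZA minus ELA called 7 higher and 0 lower among 10 eligible, where 14.3% of all eligible genes were called higher, and CHQ minus ELA called 9 higher and 0 lower among 10 eligible, where the share was 14.8%. In each comparison 6 of the genes called higher were not detected in ELA and were eligible through the treated array alone, so those counts are in part fixed by the rule, and 1 and 3 of the called genes were detected in ELA. The counts were 2 and 5 with processed signals scaled to the 75th percentile, 2 and 4 with their quantile normalization, 3 and 5 in the authors' log2 table, and 1 and 3 where both arrays had to be bright. With no filter on dim probes 11 and 13 were higher, and 1 was lower in each comparison. ELA minus ES called 0 of 4 eligible in either direction, and CHQ minus AZA called 0 higher and 1 lower, Pramel30, among 13 eligible, where 5.53% of all eligible genes were called higher and 4.81% lower. That call was lost in 8 of 12 other settings. CHQ minus AZA called 1 higher and 0 lower instead with processed signals scaled to the 75th percentile or quantile-normalized. It gave the same counts with no normexp offset and in the authors' log2 table. Over all 26 genes the median difference from ELA was 0.44 with AZA and 1.00 with CHQ, and it was 0.13 for CHQ minus AZA and -0.16 for ELA minus ES.

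Some of these genes were near background in ELA and bright with both agents. Pramel39, listed as A430089I19Rik and found on chromosome 5, read 7.56 in ES, 6.23 in ELA, 11.14 under AZA and 12.02 under CHQ. It was at least 21.1-fold higher with AZA and at least 38.8-fold higher with CHQ than in ELA, and its other probe gave bounds of 19.8-fold and 33.3-fold. Pramel37, whose promoter is nearly that of Pramel39, read 7.01, 6.85, 10.23 and 10.76 in the same order. Its fitted folds over ELA were 10.4 with AZA and 15.0 with CHQ, against an ELA value that was not well above background. A dimmer probe of Pramel37 gave bounds of 2.57-fold and 3.58-fold and was too dim for a call. The plot of the genes under other names shows the same placing for Pramel19 (listed as Gm12794), at 6.91, 5.95, 10.88 and 11.25. Pramel20, listed as BC080695, was detected on all 4 arrays at 9.21, 8.57, 12.13 and 11.79, which put AZA 3.56 and CHQ 3.22 above ELA. Pramel28 and Pramel31, which have the most similar pair of probes in the family with 54 of 60 bases matching and may therefore share signal, read 10.53 and 10.00 with AZA and 10.05 and 9.49 with CHQ, from 6.24 and 6.12 in ELA.

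**Figure D4:**
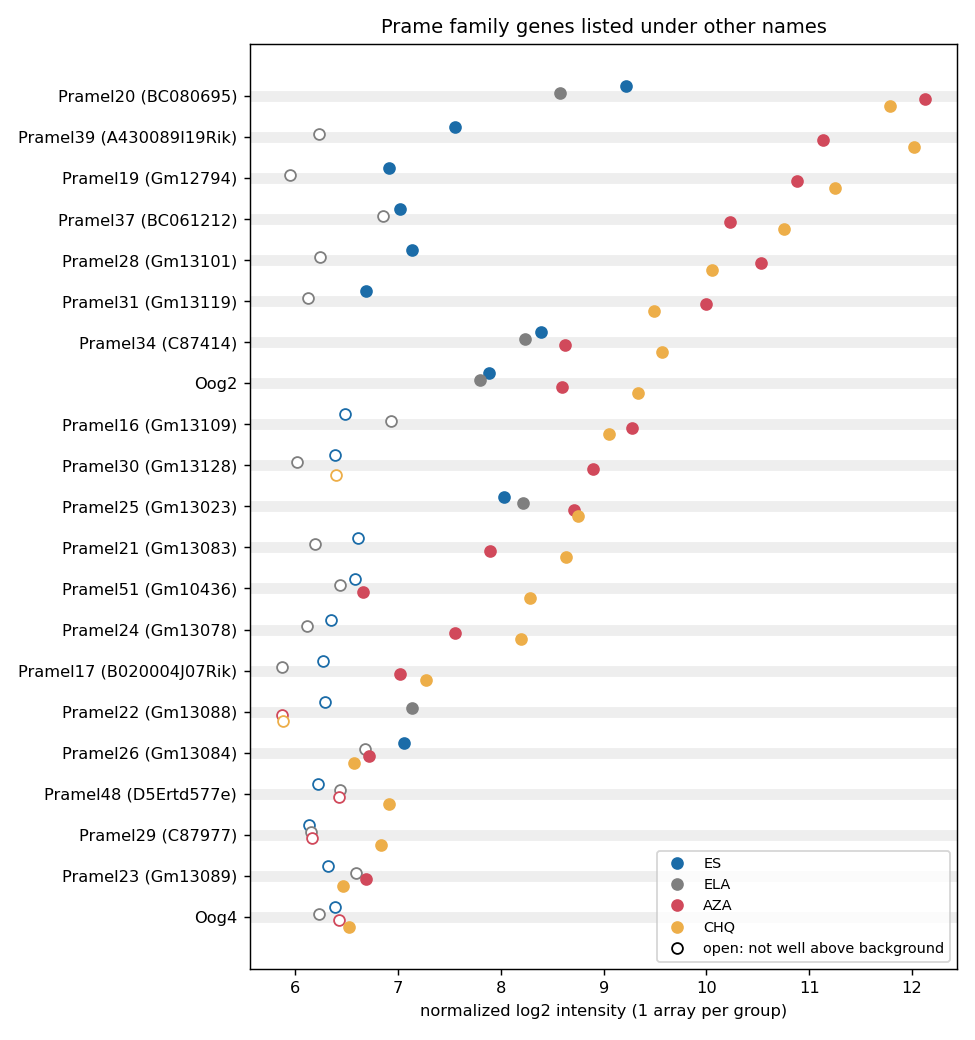
Normalized log2 intensity (x axis) of the 21 Prame family genes under other names that some array detected (y axis, name in the files in parentheses), 1 point per array for ES, ELA, AZA and CHQ, filled where well above background and open where not. Pramel20, Pramel39, Pramel19, Pramel37, Pramel28 and Pramel31 have both treated points at 9.49 or above, while Pramel30 has only its AZA point, at 8.89, apart from the rest.

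Pramel30, listed as Gm13128, was highest with AZA like Pramel14, whose promoter it nearly shares. It read 6.39 in ES, 6.01 in ELA, 8.89 under AZA and 6.39 under CHQ, and only AZA was well above background, so the order of the other arrays cannot be read. CHQ was at least 5.51-fold lower than AZA, with a fitted CHQ minus AZA of -2.50, and a dimmer probe of the gene gave -0.91. The fitted difference was -4.86 with processed signals scaled to the 75th percentile, where the gene was too dim for a call. The Pramel14 probe matched no other family probe at more than 24 of its 60 bases, and the probes of all 10 genes matched others of the family at no more than 29 bases. Full transcripts of the paralogues were not compared, so signal shared between near-identical copies cannot be told apart from the named gene. Oog2, whose promoter is nearly that of Pramel26, read 7.88, 7.80, 8.59 and 9.33 in ES, ELA, AZA and CHQ. Pramel26 read 7.06, 6.68, 6.71 and 6.57 and was not well above background in ELA. Levels of different probes cannot be compared, but differences between arrays within a probe can. Oog2 and Pramel26 were each detected under AZA and CHQ, and their CHQ minus AZA values differed, at 0.74 and -0.14, the latter within spot noise. The other pairs with nearly shared promoters had values of the same sign. These were -3.87 and -2.50 for Pramel14 and Pramel30, and 0.53 and 0.88 for Pramel37 and Pramel39. A link between promoter sequence and these readings was not tested.

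Some genes under other names stood higher with CHQ than with AZA. Pramel51, listed as Gm10436 on chromosome 12, read 6.58 in ES, 6.44 in ELA, 6.66 under AZA and 8.29 under CHQ, and ELA was not well above background. CHQ was at least 2.92-fold above ELA at this probe and at least 2.89-fold above it at the other probe, both too dim for a call. Probes of Pramel51 matched those of Pramel25 and Pramel29 at up to 51 and 50 of 60 bases, so these genes may share signal. Pramel34, listed as C87414, read 8.39, 8.24, 8.63 and 9.56 in the same order. It was called higher with CHQ than in ELA at 1.33, while its CHQ minus AZA difference of 0.94 was too small for a call. Its other probes were not well above background in ELA, and with the mean over its probes CHQ minus ELA was 0.38 and the call was lost. Oog2 was called higher with CHQ than in ELA at 1.53, and its CHQ minus AZA difference of 0.74 was too small for a call. Pramel22 had a level of 7.14 in ELA against 6.28 in ES, 5.87 with AZA and 5.88 with CHQ at its brightest probe, and the other probes of the gene were well above background on no array. Prame itself, the gene for which the family is named, was not well above background on any array.

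Of the 36 family genes, 26 lie on chromosome 4, and 23 of these lie between 142989908 and 143981642 of chromosome 4 on mm9. Within that cluster 17 genes were detected on at least 1 array, and 9 of them exceeded ELA by 1 log2 or more with AZA and 9 with CHQ, of which 8 with either agent did so by a value measured on both arrays or by a lower bound. Of the 15 and 16 cluster genes detected on at least 1 of the arrays compared, 9 and 10 were not detected in ELA and passed through the treated array alone, so the counts are in part fixed by detection. Of all genes detected in that way, 12.7% exceeded ELA by as much with AZA and 13.1% with CHQ. Both chromosome 2 genes exceeded ELA by 1 or more with AZA and 0 of the 2 did with CHQ. On chromosome 5 the counts were 2 of 4 with AZA and 3 of 4 with CHQ, and of the 3 genes on the X chromosome only Pramel3 was detected on any array, with no such difference.

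**Figure D5:**
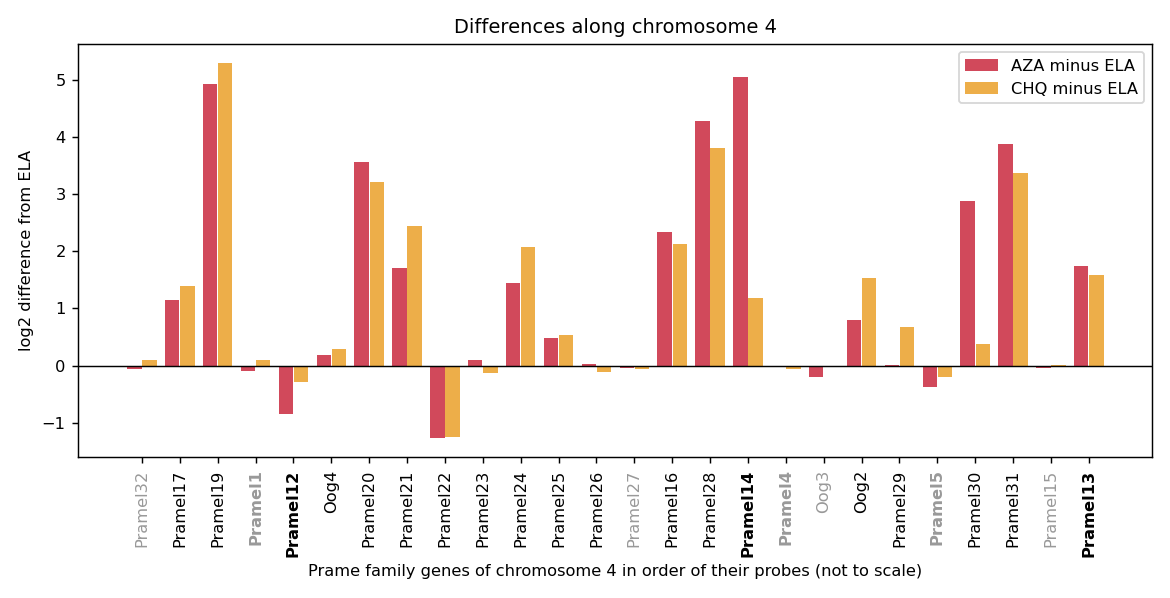
AZA minus ELA (red) and CHQ minus ELA (yellow) log2 differences (y axis) of the 26 Prame family genes of chromosome 4, placed in the order of their probes and not to scale (x axis), with Pramel and Pramef genes in bold and genes detected on no array in grey. The bars of Pramel19, Pramel20, Pramel28, Pramel14 and Pramel31 exceed 3 with AZA and stand among genes with smaller bars, several of them not detected.

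Protein-coding neighbours not recognised as family members by symbol were taken as the 2 nearest on each side of each of the 10 genes. They came to 16, of which 12 were on the array, and whether those with Gm names belong to the family was not tested. Gm13043, beside Pramel1 and Pramel12, read 7.92 in ES, 6.15 in ELA, 11.94 under AZA and 11.53 under CHQ. Gm5128 and Gm15023, beside Pramel on the X chromosome, were not well above background in ES or ELA and read 8.20 and 7.96 with AZA and 9.19 and 8.80 with CHQ. Pdpn, a membrane mucoprotein gene at the edge of the cluster, read 12.58, 13.26, 12.18 and 10.55 in the order ES, ELA, AZA and CHQ. Tceal6 read 9.59, 11.50, 9.57 and 10.38. The 4 olfactory receptor genes around Pramel6 and Pramel7 stayed between 6.04 and 6.67 on all arrays. Over the 12 neighbours, AZA minus ELA called 1 higher and 2 lower of 4 eligible, CHQ minus ELA 3 higher and 2 lower of 6, CHQ minus AZA 0 higher and 1 lower of 6, and ELA minus ES 1 higher and 0 lower of 3. The shares of all eligible genes called higher and lower against ELA were 14.3% and 11.4% under AZA and 14.8% and 11.9% under CHQ, those of CHQ against AZA were 5.53% and 4.81%, and those of ELA against ES were 4.45% and 5.59%. The neighbours called higher with either agent were not detected in ELA.

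The cullin 2 ligase, into which Prame family proteins assemble, was also read at the RNA level. All 18 of its listed genes were well above background on every array, and Cul2, the scaffold, read 12.62 in ES, 12.51 in ELA, 12.74 under AZA and 12.76 under CHQ. Its median difference from ELA was -0.18 with AZA and -0.13 with CHQ, and it was 0.11 for ELA minus ES and -0.04 for CHQ minus AZA. ELA minus ES called 1 gene higher, Klhdc2, another substrate receptor, at 1.08. AZA minus ELA called 0 higher and 2 lower, Klhdc2 at -1.31 and Ube2m, the NEDD8-conjugating enzyme, at -1.11. CHQ minus ELA called Fem1a higher at 1.11 and Klhdc2, Eloc and Nedd8 lower at -1.32, -1.07 and -1.07, and CHQ minus AZA called Fem1b higher at 1.21. Beside the 2 of 18 called lower with AZA stand 11.4% of all eligible genes, and beside the 3 of 18 lower and 1 of 18 higher with CHQ stand 11.9% and 14.8%. The 1 of 18 called higher for ELA minus ES and for CHQ minus AZA stands beside 4.45% and 5.53% of all genes.

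Uhrf1, whose protein is the known target of Pramel7, read 15.49 in ES, 15.49 in ELA, 15.10 under AZA and 14.78 under CHQ and was called in no comparison, and its protein was not analysed here. Of the 10 listed genes of DNA methylation and LIF signalling, each of which was eligible in every comparison, ELA minus ES called 2 higher and 4 lower, AZA minus ELA 4 higher and 2 lower, CHQ minus ELA 4 higher and 3 lower, and CHQ minus AZA 0. Of all eligible genes, 4.45% and 5.59% were called higher and lower for ELA minus ES, 14.3% and 11.4% for AZA minus ELA and 14.8% and 11.9% for CHQ minus ELA. For CHQ minus AZA the shares were 5.53% and 4.81%. The de novo methyltransferase genes Dnmt3a and Dnmt3b rose in ELA by 1.51 and 1.05. Both were called lower than ELA with AZA, at -1.01 and -1.71, and with CHQ, at -1.21 and -1.05. Dnmt3l, Stat3, Lifr and Socs3, the last a feedback inhibitor of LIF signalling, fell in ELA, with ELA minus ES differences of -2.74, -1.55, -2.25 and -3.00. With AZA those 4 genes exceeded ELA by 3.11, 1.53, 2.89 and 2.12, and with CHQ by 2.16, 1.74, 2.44 and 2.68.

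Genes known from other cell states were read beside the family. Of 12 listed genes of the 2-cell stage embryo, 8 were on the array, with a median level of 7.02 in ES, 6.27 in ELA, 10.49 under AZA and 10.92 under CHQ. AZA minus ELA called 5 of 6 eligible genes higher and CHQ minus ELA 6 of 7, with 0 lower in either. Of these, 4 of the 5 and 5 of the 6 were not detected in ELA and were eligible through the treated array alone, so the counts are in part fixed by the rule and are not set against the share of all genes. Zscan4f, a defining gene of that list, read 10.30, 6.17, 14.34 and 14.20 in the order ES, ELA, AZA and CHQ, and Zscan4c read 8.86, 8.56, 12.10 and 12.25. Tmem92 read 7.08, 6.10, 11.33 and 11.13, Tcstv1 read 6.82, 6.18, 9.65 and 10.701, and Tcstv3 read 6.61, 6.27, 9.23 and 10.71, and none of them was well above background in ELA. Zfp352 read 13.66, 12.41, 12.84 and 12.63, was called lower in ELA than in ES, and was called against ELA with neither agent. ELA minus ES called 0 higher and 2 lower in the list, and CHQ minus AZA called 2 higher, Tcstv1 and Tcstv3, and 0 lower, with a median of 0.37 over the 8 genes. Among 12 germ cell genes the median level was 8.79, 7.47, 9.74 and 10.05, with 1 higher and 3 lower of 8 eligible for ELA minus ES, 5 higher and 2 lower of 9 for AZA minus ELA, 5 higher and 1 lower of 9 for CHQ minus ELA, and 2 higher and 1 lower of 10 for CHQ minus AZA. Of all eligible genes, 4.45% and 5.59% were called higher and lower in ELA against ES, and 5.53% and 4.81% under CHQ against AZA, while against ELA the shares were 14.3% and 11.4% under AZA and 14.8% and 11.9% under CHQ. In the germ cell list 2 of the 5 higher calls in each treated comparison were of genes not detected in ELA. Hormad1, a meiotic chromosome protein gene, read 8.47, 7.04, 11.46 and 10.54, and Dazl, a germ cell RNA-binding protein gene, 7.75, 7.40, 10.53 and 9.30. Tex101 read 9.21, 7.81, 9.76 and 10.51, Slc25a31 read 7.40, 6.90, 8.70 and 9.60, and Stk31 read 9.098, 7.54, 9.71 and 9.33. Ddx4, a defining germ cell gene, read 11.41, 10.52, 9.32 and 11.01 and was lowest with AZA. Sycp3 read 12.71, 13.75, 12.67 and 12.36, and was called higher in ELA than in ES and lower than ELA with both agents. The part of these cell states in the Prame family values was not tested.

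Markers of the labelled cells and of other lineages were read on the same arrays. The 6 embryonic stem cell markers had a median level of 14.94 in ES, 12.31 in ELA, 14.72 under AZA and 13.49 under CHQ, and 4 were called lower in ELA than in ES, 4 higher with AZA and 3 higher with CHQ than in ELA. CHQ minus AZA called 2 of the 6 lower. Over all eligible genes 5.59% were lower in ELA than in ES, 14.3% and 14.8% were higher than ELA with AZA and CHQ, and 4.81% were lower for CHQ minus AZA. Nanog, a factor of the ground state, read 15.03, 12.53, 15.39 and 12.54, so that its AZA value stood with ES and its CHQ value with ELA. The other 3 called markers were above ELA with both agents, as Klf4 read 12.54, 9.50, 13.58 and 13.00, Esrrb read 14.93, 12.08, 15.98 and 13.97, and Zfp42 read 15.80, 11.99, 15.72 and 15.04. Of 4 primed epiblast markers, ELA minus ES called 2 higher, AZA minus ELA 3 lower, CHQ minus ELA 2 lower and CHQ minus AZA 2 higher, beside 4.45%, 11.4%, 11.9% and 5.53% of all eligible genes. Fgf5, which marks that state, read 11.61, 14.47, 11.94 and 13.33. The primitive endoderm genes Gata6 and Sox17 read 9.89 and 9.51 with CHQ against 6.69 and 6.76 in ELA and were not well above background in ES or ELA, while CHQ minus ELA called 2 higher and 1 lower of the 4 eligible genes in that list, and AZA minus ELA 0 higher and 1 lower of 2. Gata6 and Sox17 were eligible for CHQ minus ELA through the CHQ array alone. Of the 4 trophoblast markers, 2 were eligible against ELA with either agent, and each agent called Tfap2c higher and Krt8 lower, and Cdx2 and Elf5, which define that lineage, lay at 6.53 or below with either agent. The 3 neural and 3 mesoderm markers gave 0 calls higher with either agent. Nes was called lower with each agent, and Kdr was called lower with CHQ.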

How the data were processed

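RNA of 4 groups was measured on 1-colour Agilent SurePrint G3 Mouse arrays with probes of 60 bases, and per the file headers the deposited intensity values (spot mean, spot median, local background and processed signal) were read from mm9-designed arrays with Feature Extraction 10.7.3.1. The submitters' processing notes name Agilent Feature Extraction 9.1 and limma. The authors also deposited a table of log2 values, whose centring and exact recipe are not given in the sources used here. It correlated at r = 0.9991 to 0.9994 across 55122 probes with normexp values computed here without offset from spot means, and at 0.9997 with those from spot medians, with column medians of 6.21 to 6.24, and served as an alternative. Spot mean intensities were background-corrected with normexp (offset 50) and quantile-normalized over the 4 arrays in limma 3.58.1 (R 4.3.3). The study's methods name background correction, quantile normalization and limma, while normexp, its offset and the use of spot means were chosen here. Then control spots and outlier spots were left out, spots of a probe were averaged, and the probe with the highest mean represented a gene. No gene spot was saturated. The background correction and normalization code was tested on simulated intensities. Only genes clearly above background were changed there, so the test does not cover dim genes.

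Probes were named by RefSeq accession (47.7% of 55681) and otherwise by the name in the file. Values are given on all arrays for each Pramel or Pramef gene detected on at least 1, and levels or differences are given for the 5 called genes with the largest differences in each pathway, neighbour, 2-cell and germ cell list. Others named (lineage markers, Nedd8, Dnmt3a, Zscan4c, Zfp352, Cul2, Uhrf1, Ddx4, Sycp3, Cdx2, Elf5, Gata6, Sox17, Nanog, Prame, and the family genes under other names) serve as list markers or were picked after their values were seen. Promoters were aligned end to end in pairs. The genes and lists were chosen with earlier results of these data known. With 1 array per group no test between groups was possible, and precision is limited by how few arrays there are. Alternatives covered background correction, normalization, spike-in scaling, dim probe filters, outlier flags and the choice of probe. A Smarca4 knockdown array was not analysed here.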

Additional observations from a re-analysis of the deposited data

How the results depend on the processing

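No paired analysis was possible because each group had 1 array, and for the same reason no replicate could be left out. Counts and medians below refer to the 10 Pramel and Pramef genes, and the cause of each move was not tested. With processed signals scaled to the 75th percentile, ELA minus ES called 1 lower and CHQ minus AZA 1 lower, and the medians were 4.08 (AZA minus ELA), 1.11 (CHQ minus ELA), -1.504 (ELA minus ES) and -1.78 (CHQ minus AZA), while the median of all detected genes lay between -0.18 and -0.08. With processed signals and quantile normalization CHQ minus AZA called 1 lower, and the medians in that order were 4.92, 1.68, -1.88 and -1.71. With no background correction CHQ minus AZA called 1 lower, and AZA minus ELA and CHQ minus ELA had medians of 2.07 and 0.67. With no normexp offset it called 1 lower, and the medians were 2.74, 0.63, -1.07 and -1.23. The authors' log2 table gave 1 lower there too, and medians of 2.62, 0.54, -1.08 and -1.20. Scaling to 7 spike-in probes called 2 lower for ELA minus ES and 1 lower for CHQ minus AZA, with medians of -0.46 for CHQ minus ELA, -1.31 for ELA minus ES and -1.04 for CHQ minus AZA. Wherever CHQ minus AZA called 1 lower, the lost call was Pramel6, whose mean level was then under 7.5. With no filter on dim probes, ELA minus ES called 1 lower with a median of -0.13, AZA minus ELA called 4 higher with a median of 0.0099, CHQ minus ELA called 2 higher, and the CHQ minus AZA median was 0.0759. This setting takes the median over all 10 genes, undetected ones included. When both arrays had to be bright, AZA minus ELA called 1 higher with a median of 0.45, the CHQ minus ELA median was 0.65, and CHQ minus AZA called 0 lower with a median of 0.21. This setting leaves out Pramel14, Pramel6 and Pramel7, which are dim on 1 side.

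The other 98 of these values kept within 1.5 times the count or within the spot noise. The 5 called differences of these genes had 57 values under alternatives, of which 0 changed sign, 39 stayed and 18 moved in size or lost the call, and the 17 of genes under other names had 188, of which 0 changed sign and 98 moved. Their 1 call lower for CHQ minus AZA, Pramel30, was lost in 8 settings. Spot medians in place of means were tried after seeing the data. Signal over background limits what can be read of genes that are dim on 1 array, and the background was lower on the slide of the treated arrays.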
